A study of Mus musculus with 2 samples.

Results

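The genes described here are 7 oncogenes and tumour suppressors known in colon carcinoma or in CT26 cells: the RAS genes Hras and Nras, the RAF kinase gene Braf, the transcription factor genes Myc and Mycn, and the cell cycle inhibitor genes Cdkn2a and Cdkn2b. They were taken by name, through the gene symbol or Entrez gene number of each probe, and all 7 were found, with 18 of the 45281 probes and out of 28907 gene names in all. The shCDK8 array held total RNA of CT26-shCDK8, a CT26 culture transduced with the lentiviral vector pLKO.1 carrying a short hairpin RNA against CDK8. The control array held RNA of CT26-pLKO.1, the same cell line with the empty vector. CT26 is a colon carcinoma cell line from a BALB/c mouse, and both cultures derive from it. Whether they carry the same mutations was not measured. The labels do not say whether either culture was 1 clone or how many hairpins were used.

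RAS proteins are small GTPases that switch on when growth factor receptors recruit an exchange factor, and switch off when a GTPase-activating protein speeds the hydrolysis of their GTP. Active RAS recruits RAF kinases such as BRAF, which phosphorylate MEK, which phosphorylates ERK, and ERK in turn raises the transcription of early genes and stabilises the MYC protein. MYC binds DNA with its partner MAX and drives genes of ribosome production and nucleotide and polyamine synthesis. Cdkn2a makes 2 unrelated proteins from separate first exons, p16Ink4a, which inhibits CDK4 and CDK6, and p19Arf, which protects p53 from MDM2. Cdkn2b lies beside it and makes the related inhibitor p15Ink4b. In colon tumours RAS and RAF genes are often mutated, Myc is often overproduced downstream of Wnt signals, and the Cdkn2a locus is often silenced or lost. CT26 cells have been described as carrying a homozygous loss of Cdkn2a.

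Each group had 1 array, so no spread between cultures could be estimated, no p-value was computed, and every direction given is that of a single pair of cultures. Differences are shCDK8 minus control on the log2 scale after background correction and quantile normalization, and a probe counted as detected above a limit drawn from the dim probes, at a raw intensity of 93.6 on the shCDK8 array and 94.5 on the control array. Cdk8 itself had raw intensities of 317.9 in shCDK8 and 992.5 in control cells at its 1 detected probe, a difference of -1.99, in the direction of the label. Of 12827 genes detected on both arrays, 259 were at least 1.5-fold higher and 284 at least 1.5-fold lower in shCDK8 cells (354 and 213 without normalization between arrays). The middle 95% of their differences ran from -0.56 to 0.54. The SD between probes of 1 gene on the same arrays, pooled over 4277 genes, was 0.20 and served as the yardstick for size; it says nothing about cultures. Of 10 markers of colon epithelium, 5 were detected on both arrays and Krt8 on the shCDK8 array only, while Epcam, Krt18, Krt19 and Vil1 were not detected; Krt20 and the intestinal factor gene Cdx2, both dim, differed by -0.94 and -0.93. The leukocyte markers Ptprc and Cd3e and the endothelial markers Pecam1, Cdh5, Tek and Vwf were not detected, whereas Cd14 differed by -0.01, Cd68 by -0.39 and the endothelial Kdr by 0.26. Of 8 fibroblast markers 5 were detected on both arrays, with a median difference of 0.58, and Thy1 was not detected. Summed over all 8 markers, undetected probes included, the level was 9.39 in shCDK8 and 9.01 in control cells on the log2 scale. Most detected genes of that list were higher in shCDK8 cells, with Col1a1 at 1.41, Col1a2 at 0.84, Dcn at 0.58 and Pdgfra at 0.19. Lum, detected in shCDK8 cells only, was at least 1.71-fold higher. Pdgfrb went the other way at -1.0. Postn was detected in control cells only, with a bound of 1.06-fold lower that leaves out measurement noise. The part of these markers in the results below was not tested.

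Of the 7 genes, 5 were detected on both arrays, and none of the 5 differed by 1.5-fold, against 4.23% of all genes detected on both (2.02% higher and 2.21% lower in shCDK8 cells). The 5 differences ran from -0.25 to 0.11 with a median of -0.14, against a median of -0.005 over all genes. Hras, Nras, Braf and Cdkn2a were below 0 and Myc was above it. Cdkn2a alone had a gene mean beyond the SD between probes, which 37.2% of all genes exceeded, and it rested on a probe at the edge of detection. Mycn and Cdkn2b were not detected on either array.

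**Figure D1:**
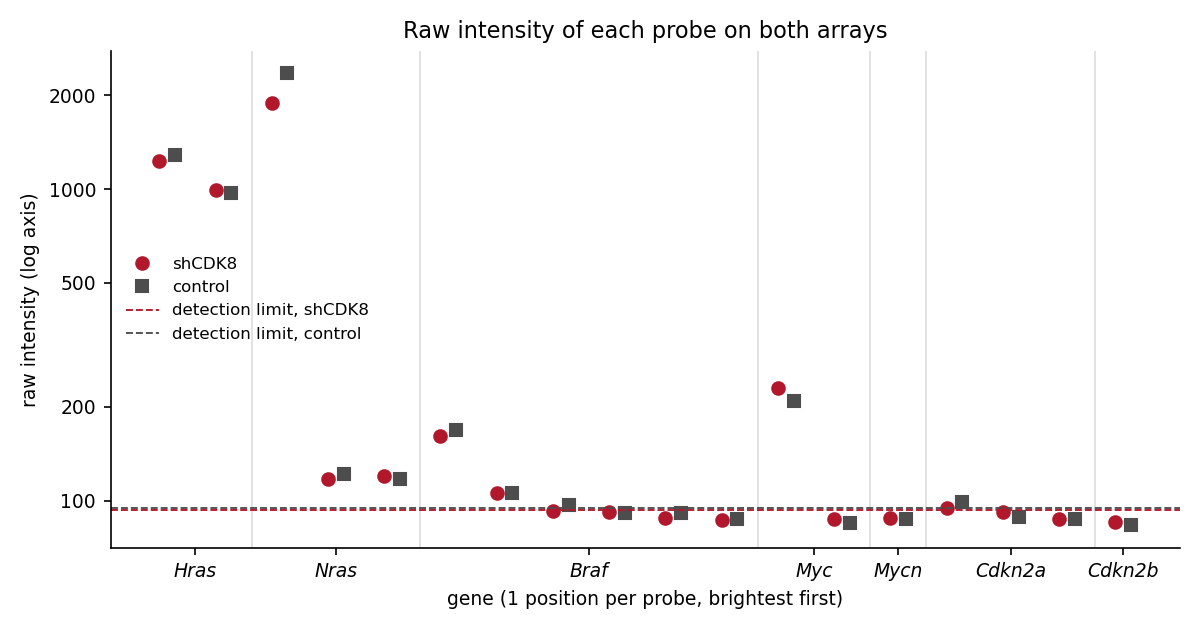
Raw intensity (log axis) of each of the 18 probes on the shCDK8 array (red circles) and the control array (grey squares), grouped by gene with the brightest probe of a gene first; dashed lines mark the detection limits. Both Hras probes and the first Nras probe read at least 971 on both arrays, 1 Myc probe stands at 229.3 in shCDK8 and 209 in control cells, and all Mycn and Cdkn2b probes lie below the limits.

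Hras encodes a RAS protein made in most tissues. Its brighter probe read 1231.4 in shCDK8 and 1288.1 in control cells. The other probe read 996.3 in shCDK8 and 971 in control cells. On the normalized log2 scale the probes differed by -0.14 and -0.03, and the gene mean by -0.08, with levels of 9.98 in shCDK8 and 10.06 in control cells. Both probes were thus well above background in both cultures, and their difference was under the SD between probes. The brighter probe carries no Entrez gene number and was assigned by its older symbol, Hras1.

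Nras encodes a second RAS protein, and its bright probe showed the largest difference of any detected probe of the 7 genes. That probe read 1883.7 in shCDK8 and 2351.9 in control cells, a difference of -0.40 or 1.32-fold lower. A further probe read 117.4 in shCDK8 and 121.8 in control cells and differed by -0.16. The dimmest read 120.3 in shCDK8 and 117.3 in control cells and differed by 0.07. The bright probe was lower in shCDK8 cells beyond the probe SD, while the dim pair lay on either side of 0, and only the bright probe carries an Entrez gene number. The gene mean, which weights the 3 probes equally, was 7.28 in shCDK8 and 7.44 in control cells, a difference of -0.16, and 22.9% of all genes were at or below it.

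The promoter of Nras is shown because the bright Nras probe had this largest difference among detected probes. A further reason was the sequence that MYC and MAX recognise, which this promoter holds. It is the RefSeq entry of build GRCm38.p6, chr3:103058035-103058334 on the plus strand, 250 bases before to 50 after the transcription start. Capitals mark the E-box CACGTG and the GC box GGGCGG, searched on both strands, where GC boxes can overlap.
Nras promoter: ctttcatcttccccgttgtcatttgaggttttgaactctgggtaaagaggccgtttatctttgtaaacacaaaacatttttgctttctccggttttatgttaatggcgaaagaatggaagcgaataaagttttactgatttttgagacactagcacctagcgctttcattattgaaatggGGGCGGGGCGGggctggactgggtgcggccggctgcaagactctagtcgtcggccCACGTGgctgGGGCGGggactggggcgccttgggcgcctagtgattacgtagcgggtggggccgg
This promoter held 1 E-box, found in 7.15% of 32851 RefSeq promoters of this length, and 3 GC boxes, a motif found in 35.7% of them. The E-box was found in no other promoter of the members, of which 7 were matched for 6 genes. Myc had no matched promoter, so the Myc promoter was not searched. The Hras promoter held 3 GC boxes. A match describes these letters and is not evidence of binding.

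Braf encodes the RAF kinase most often mutated in human colon cancer. Of its 6 probes, the brightest read 161 in shCDK8 and 168.7 in control cells and differed by -0.19. Another read 105.8 in shCDK8 and 106 in control cells and differed by 0.00. The next in brightness read 92.6 in shCDK8 and 96.7 in control cells. It was not well above background in shCDK8 cells, and the bound of 1.12-fold lower there leaves out measurement noise. The remaining 3 read between 86.8 and 91.8 in shCDK8 and between 87.2 and 91.5 in control cells and were at background. Braf was therefore measured by dim probes in both cultures, with a gene mean of 5.29 in shCDK8 and 5.43 in control cells and a difference of -0.14. The 3 probes behind it carry no Entrez gene number, and the 2 Braf probes that do were at background on both arrays, so the assignment rests on the symbol in the deposited table alone. The Braf promoter held 2 copies of the cyclic AMP response element TGACGTCA, a motif present in 1.79% of promoters, and 1 GC box.

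Myc was the only one of the 5 detected genes with a higher value in shCDK8 cells. Its detected probe read 229.3 in shCDK8 and 209 in control cells. On the normalized log2 scale it was at 7.25 in shCDK8 and 7.14 in control cells, a difference of 0.11 or 1.08-fold. The other Myc probe read 87.5 in shCDK8 and 85.1 in control cells and was at background on both. The difference at the detected probe was smaller than the SD between probes, and 1978 other genes lay within 0.05 of it. Mycn, the paralog active mainly in embryonic and neural cells, read 88.1 in shCDK8 and 87.3 in control cells at its single probe, below the limit on both arrays. Its promoter held 2 copies of the E2F motif TTTGGCGC, present in 0.514% of promoters.

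**Figure D2:**
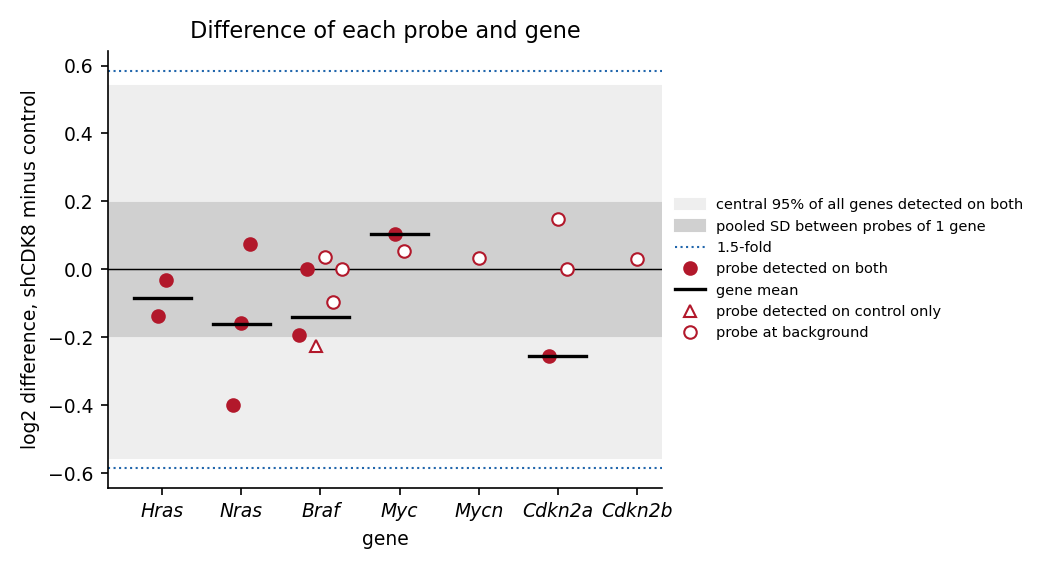
Log2 difference, shCDK8 minus control, of each probe of the 7 genes: filled circles were detected on both arrays, the triangle on the control array only, and open circles were at background; black bars are gene means. The dark band is the SD between probes (0.20), the light band the middle 95% of all genes (-0.56 to 0.54), and dotted lines mark 1.5-fold; every point lies inside the dotted lines, and the bright Nras probe is lowest at -0.40.

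The tumour suppressor genes Cdkn2a and Cdkn2b were at or near background in both cultures. Of the 3 Cdkn2a probes, 1 read 94.4 in shCDK8 and 99.1 in control cells, within 5 units of the limits, and differed by -0.25. The others read 91.8 and 87.2 in shCDK8 and 88.8 and 87.6 in control cells and were not detected. The 1 Cdkn2b probe read 85.4 in shCDK8 and 83.4 in control cells and was not detected. With all 3 Cdkn2a probes averaged, the difference of the gene was -0.03. In the authors' processed table the values of the first Cdkn2a probe were under the floor of 16 on both arrays and gave no difference. The arrays thus gave no firm level and no firm difference for either gene.

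The files do not say which Cdkn2a transcript each probe reads. The gene has separate start sites, and the promoters of both are shown with that of Cdkn2b so that the 3 starts of the locus can be compared. All are RefSeq entries of build GRCm38.p6 on the minus strand, with the p19Arf start at chr4:89294570-89294869, the p16Ink4a start at chr4:89282143-89282442 and Cdkn2b at chr4:89310983-89311282. Capitals mark GC boxes (GGGCGG, both strands) and, in Cdkn2b, the cyclic AMP response element.
Cdkn2a, p19Arf start: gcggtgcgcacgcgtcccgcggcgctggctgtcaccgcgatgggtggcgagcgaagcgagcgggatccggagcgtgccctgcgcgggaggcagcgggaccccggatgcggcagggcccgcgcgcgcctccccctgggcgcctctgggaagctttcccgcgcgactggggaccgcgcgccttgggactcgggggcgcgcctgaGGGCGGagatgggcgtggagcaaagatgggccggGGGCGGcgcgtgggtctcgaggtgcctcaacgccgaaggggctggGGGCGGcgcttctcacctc
Cdkn2a, p16Ink4a start: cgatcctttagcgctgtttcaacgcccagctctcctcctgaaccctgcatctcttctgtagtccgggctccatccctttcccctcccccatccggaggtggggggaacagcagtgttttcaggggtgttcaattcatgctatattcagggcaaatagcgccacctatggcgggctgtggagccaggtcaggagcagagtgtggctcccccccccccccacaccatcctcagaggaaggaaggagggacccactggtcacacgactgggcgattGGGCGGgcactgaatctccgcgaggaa
Cdkn2b: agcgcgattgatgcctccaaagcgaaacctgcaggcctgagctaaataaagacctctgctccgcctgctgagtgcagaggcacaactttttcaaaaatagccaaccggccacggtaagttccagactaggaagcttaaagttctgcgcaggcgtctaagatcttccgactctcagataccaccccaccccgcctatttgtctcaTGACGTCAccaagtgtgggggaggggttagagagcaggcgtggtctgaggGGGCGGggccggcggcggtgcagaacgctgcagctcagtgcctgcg
The p19Arf promoter held 3 GC boxes and 45 CpG dinucleotides, at 77.0% G and C. The p16Ink4a promoter held 1 GC box and 12 CpG dinucleotides, and that of Cdkn2b 1 GC box and 18. The median promoter in the table held 7 CpG dinucleotides and 52.7% G and C.

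The genes beside Cdkn2a and Cdkn2b on chromosome 4 were not all dim. Mtap, which encodes the methylthioadenosine phosphorylase that salvages adenine and methionine and which is often lost together with CDKN2A in human tumours, was bright in both cultures. Its probes read 5093.5 and 2792.2 in shCDK8 cells, against 3203.1 and 1860.2 in control cells. The differences of 0.61 and 0.54 gave a gene mean of 0.58, or 1.49-fold higher in shCDK8 cells, and 97.9% of all genes were at or below it. On the far side, Dmrta1 read 117.4 in shCDK8 and 107 in control cells, a difference of 0.36, and Tusc1 read 697.8 in shCDK8 and 623.4 in control cells at its brighter probe. That Tusc1 probe differed by 0.09 and a dim one by 0.50, for a gene mean of 0.30. Between Mtap and Tusc1, the probes of Elavl2, Zfp352 and Izumo3, genes of nerve or germ cells or of the early embryo, were not detected. Gene order was taken from a RefSeq table of assembly GRCm38.p6, which need not be the build of the probes.

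**Figure D3:**
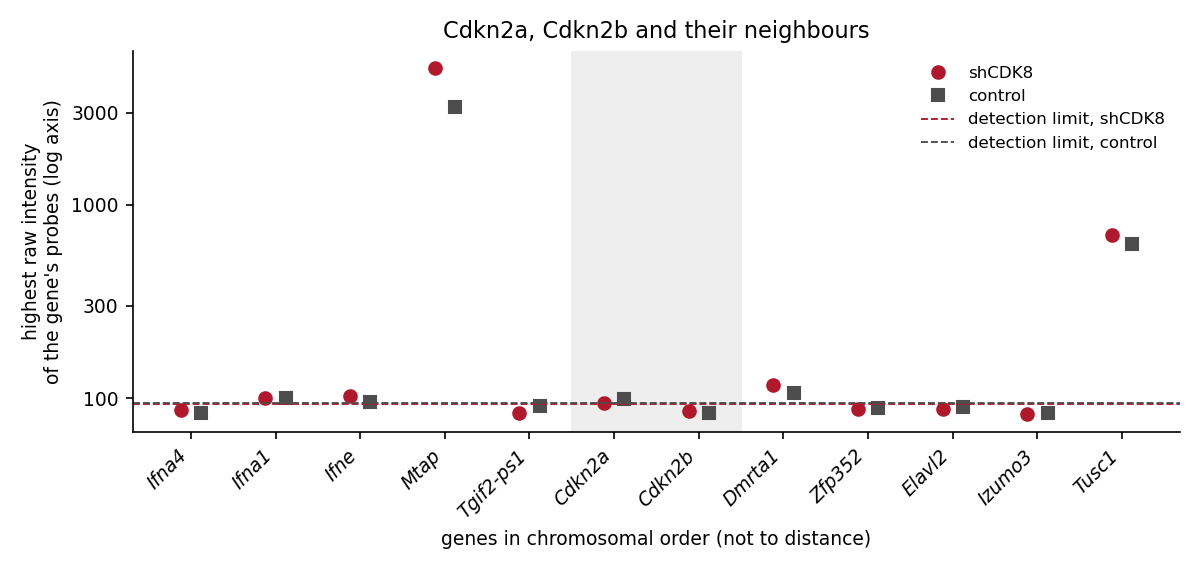
Highest raw intensity (log axis) among the probes of Cdkn2a and Cdkn2b (shaded) and of the 5 nearest named genes on each side, in chromosomal order and not to distance; red circles are shCDK8, grey squares control, and dashed lines the detection limits. Mtap (5093.5 in shCDK8, 3203.1 in control) and Tusc1 (697.8 in shCDK8, 623.4 in control) stand far above the limits, while Cdkn2a lies just above and Cdkn2b below them.

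Around Myc on chromosome 15, the long noncoding RNA gene Pvt1 read 143.7 in shCDK8 and 140.2 in control cells and differed by 0.03. Nsmce2, a SUMO ligase of DNA repair, had 4 detected probes that all lay above 0, from 0.09 to 0.31, and a gene mean of 0.20. Lratd2, Trib1 and Washc5 differed by 0.07, 0.01 and -0.03. A1bg, Macroh2a3, Gsdmc and Gsdmcl1 were not detected. Gsdmc2 was detected in control cells only, at 94.9 against a limit of 94.5, so it gave no firm difference. None of the 5 neighbours detected on both arrays differed by 1.5-fold, against 4.23% of all genes.

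Genes that act with the RAS proteins were split between both directions. Of 11 RAS-related GTPases, 10 were detected on both arrays, with a median difference of -0.02 and none at 1.5-fold, against 4.23% of all genes. Rap1b, which works in adhesion, differed by -0.20, while Rap2b differed by 0.34 and Rala, an effector branch of RAS, by 0.20. Rap2a, Rras and Rit1 differed by -0.06, -0.06 and 0.03, and the sign of Rap2a and Rras changed with the processing. Among 13 activators and adaptors, 6 were detected on both arrays. Shc1, the adaptor that links receptors to the exchange factors, differed by -0.54, with all 3 probes below 0 and raw intensities of 2572.1 in shCDK8 and 3528.1 in control cells at the brightest. Shoc2, a scaffold that helps activate RAF, differed by 0.54 and the exchange factor gene Sos2 by 0.34, both from dim probes. Sos1 and the phosphatase gene Ptpn11 differed by 0.15 and 0.03, with signs that changed with the processing. The adaptor gene Grb2, at 97.2 in shCDK8 and 106 in control cells, differed by -0.42. In the authors' processed table both Grb2 values lay under the floor of 16, so that table gave no difference for it. Rasgrp3, an exchange factor detected in control cells only, was at least 1.59-fold lower in shCDK8 cells. The list's median was 0.09, or -0.26 over the genes with a raw intensity of at least 150.

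The genes listed as RAS inhibitors lay more often above 0 than below it, but mostly within the probe SD. Of 14 genes listed as GTPase-activating proteins or other inhibitors, 11 were detected on both arrays, with a median of 0.09. Above 0 were 8 of the 11, against 48.8% of all genes. Beyond the probe SD, 2 were higher and none lower, against 18.2% and 19.0% of all genes. In either direction 18.2% of the 11 lay beyond it, against 37.2% of all genes. Rasal2, a GTPase-activating protein, differed by 0.44, with both probes above 0, Lztr1, which helps degrade RAS, by 0.29 and Spred2 by 0.20. The lowest was Rassf1 at -0.13, although its brightest probe differed by 0.01 and the next by -0.40. Nf1, the neurofibromin gene, and Dab2ip differed by -0.03 and -0.02. The signs of Rassf1, Nf1 and Dab2ip changed with the processing. Of the 9 enzymes and carriers that lipid-modify and sort RAS, all were detected and the median was -0.02. Icmt, which methylates the RAS C terminus, stood apart at -0.57, with 172.9 in shCDK8 and 229.5 in control cells at its brighter probe. The others lay between -0.15 for Golga7 and 0.07 for Zdhhc9, whose signs changed with the processing; Pggt1b, a prenyltransferase gene, differed by -0.12, the farnesyltransferase gene Fnta by 0.05 and the protease gene Rce1 by 0.07.

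The kinases below RAS spread to both sides of 0 about as widely as other genes. Of 13 kinases and scaffolds, 11 were detected on both arrays, with a median of -0.02. None differed by 1.5-fold, against 4.23% of all genes. Beyond the probe SD were 36.4% of the 11, against 37.2% of all genes. The ERK gene Mapk3 differed by 0.08. Araf had a mean of -0.28, but its 2 brightest probes differed by -0.03 and 0.04 and the dim ones carried the difference. The MEK genes lay on opposite sides, Map2k2 at -0.28 and Map2k1 at 0.32, the second from a dim probe. The scaffold gene Ksr1, at 94.9 in shCDK8 and 99.7 in control cells, differed by -0.26 (up to 0.01 under other settings), Pebp1, which restrains RAF, by 0.19 and the kinase gene Rps6ka1 by 0.14. Of 10 genes whose transcription follows ERK activity, 9 were detected on both arrays, with a median of -0.14. Below 0 were 6 of the 9, against 50.8% of all genes. Dusp6, the phosphatase that switches ERK off, differed by -0.93, and its 3 probes by -0.88, -0.94 and -0.96, with 1077.2 in shCDK8 and 1842 in control cells at the brightest. Epha2 differed by -0.42, Spry4, a feedback inhibitor of the pathway, by -0.34 and Phlda1 by -0.25, whereas Ccnd1, the cyclin D1 gene, differed by 0.22 with all 3 probes above 0, Epha4 by 0.09 and Etv4 by 0.07. The list as a whole thus had 4 genes lower and 1 higher beyond the probe SD, which 19.0% of all genes were below and 18.2% above.

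**Figure D4:**
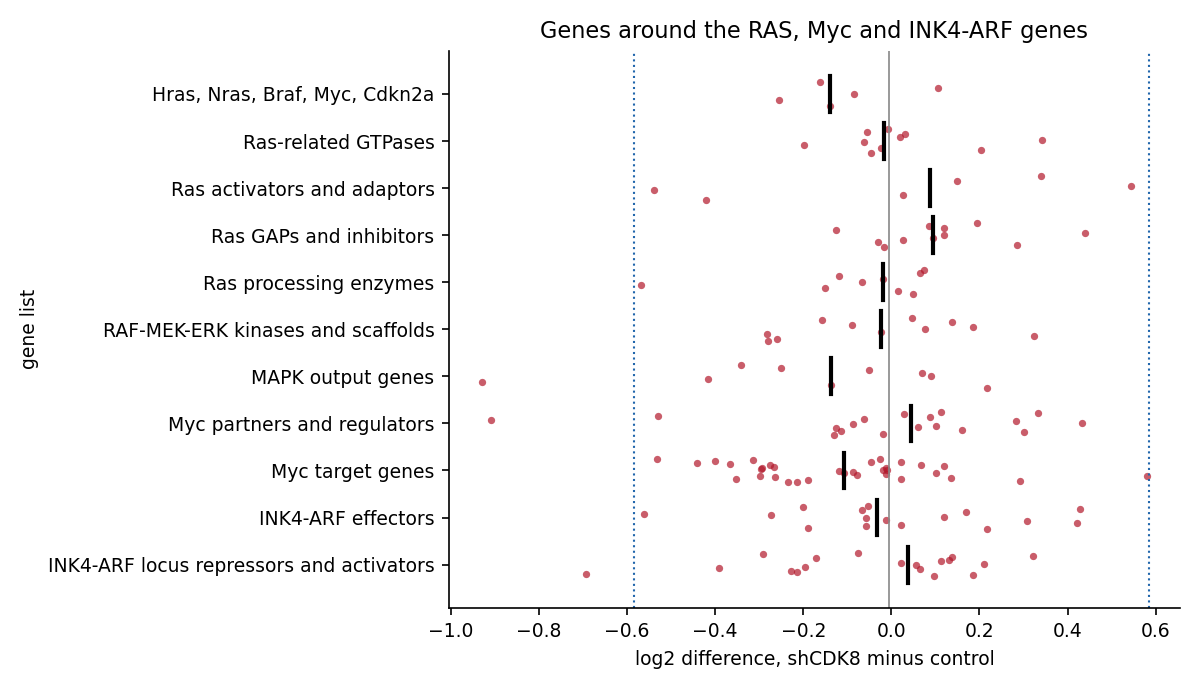
Log2 difference, shCDK8 minus control, of each gene detected on both arrays (red points) in the 5 detected oncogene and tumour suppressor genes and in 10 lists of genes that act with them; black bars are list medians, the grey line the median of all genes and dotted lines 1.5-fold. The points spread to both sides of 0 in every list; Dusp6 at -0.93, Mycl at -0.91 and Cbx7 at -0.69 lie beyond the dotted lines.

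Among partners and regulators of MYC, all 18 were detected on both arrays and the median was 0.04. Mycl, the third Myc family gene, was 1.88-fold lower at its 1 probe, with 111.6 in shCDK8 and 144.2 in control cells. Because that probe is dim, the log2 difference was -0.39 without background correction and -0.56 with an offset of 50. Skp2, a ubiquitin ligase subunit that acts on MYC and on the inhibitor p27, differed by -0.53, and its 4 brightest probes by -0.76 to -0.58. The dimmest Skp2 probe read 131.3 in shCDK8 and 129.5 in control cells and differed by 0.005. Fbxw7, a ubiquitin ligase subunit that marks MYC for degradation, differed by -0.13 and Max, the obligate partner, by -0.12. Mxd4, which competes with MYC for MAX, differed by 0.43 with all 3 probes above 0, and Usp28, which stabilises MYC, and the acetyltransferase gene Kat5 differed by 0.33 and 0.30; the brightest probe of Kat5 differed by 0.005.

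Targets of MYC leaned to lower values in shCDK8 cells. Myc itself, at 0.11 from 1 detected probe, differed by less than the SD between probes, so it had no firm direction. Of 40 listed targets, 33 were detected on both arrays, and 25 of these (75.8%) were below 0, against 50.8% of all genes. The median was -0.11, and none reached 1.5-fold, against 4.23% of all genes. Beyond the probe SD, 14 lay lower and 2 higher, against 19.0% and 18.2% of all genes. The lowest were the ribosome production genes Wdr74 at -0.53 and Rrp9 at -0.44 and the mitochondrial RNA gene Tbrg4 at -0.40. Odc1, which makes polyamines, read 6919.4 in shCDK8 and 7906 in control cells and differed by -0.27. On the other side, the importin gene Ipo4 differed by 0.58, with 1115.9 in shCDK8 and 734.8 in control cells, Cad, of pyrimidine synthesis, by 0.29 and the nucleolar gene Gnl3 by 0.14. Without normalization between arrays 20 of the 33 targets were below 0, or 60.6%, against 39.6% of all genes. No probe was matched to the names Fbl and Ddx18 of the list.

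The genes through which p16Ink4a, p15Ink4b and p19Arf act were present in both cultures. Of 17, 16 were detected on both arrays, with a median of -0.03 and none at 1.5-fold, against 4.23% of all genes. The INK4 paralogs Cdkn2c and Cdkn2d, unlike Cdkn2a and Cdkn2b, were well above background: Cdkn2c read 829.7 in shCDK8 and 675.3 in control cells at its brighter probe, and Cdkn2d read 555.9 in shCDK8 and 541.2 in control cells. Their gene means differed by -0.01 and -0.06, although the probes of Cdkn2c gave 0.24 and -0.26. Cdk6 and the retinoblastoma gene Rb1 differed by 0.42 and 0.43, and Rb1 had both probes above 0. The 1 Cdk6 probe was dim, and its difference ranged from 0.19 to 0.58 across the settings. Cdk4 differed by 0.02. Cdkn1a, the p53 target that encodes p21, differed by 0.31 with all 3 probes above 0. E2f3, a transcription factor held by RB1, had the lowest mean at -0.56, or -0.30 at its brighter probe, followed by E2f2 at -0.27 and the RB1 relative Rbl1 at -0.20.

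Genes known to repress or activate the Cdkn2a locus had a median of 0.04 over 18 genes detected on both arrays. Cbx7, a Polycomb protein that represses the locus, was 1.62-fold lower at its 1 probe, with 117.4 in shCDK8 and 143.1 in control cells, and the log2 difference was -0.31 without background correction. The Polycomb gene Suz12 averaged -0.29 over 2 probes. The bright one differed by -0.58 and read 1420.3 in shCDK8 and 2005.8 in control cells. Ets1, an activator of the locus, differed by -0.39. On the other side were Id1, which restrains that activator, at 0.21, the Polycomb gene Rnf2 at 0.32 and Cbx2 at 0.19. The Rnf2 probe was dim, and its difference was 0.10 without background correction. The Polycomb genes Bmi1 and Ezh2 differed by 0.10 and 0.05. Tbx2, a repressor detected in shCDK8 cells only, was at least 1.23-fold higher.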

How the data were processed

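Total RNA of 2 CT26 cultures was labelled with biotin and hybridised to Illumina mouse bead arrays, 1 array per group. The first table deposited by the authors holds raw intensity values exported with GSGX 1.9.0 with no normalization or background subtraction, per the file headers, without detection p-values or bead errors. The second holds the authors' processed intensity values; how they were made is not given in the sources used here. They are linear, 29.8% lie below 0 on each array, their medians are both 3.4 and the sorted columns differ by at most 0.1; their centring stays unknown.

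The background peak (88.0 in shCDK8, 88.6 in control) and its mirrored lower side (SD 2.47 and 2.55) set the correction (normexp, limma 3.58.1, R 4.3.3) and the detection limit (upper 1%), which called 47.3% and 46.1% of probes detected. A true background may have a longer upper tail, so this limit may be lenient. An offset of 16 was added, and quantile normalization and log2 followed. The offset shrinks dim differences. Probes detected on either array were averaged per gene. A gene or probe detected on 1 array only is given as a bound against the lowest detected level. Such a bound leaves out measurement noise, so a bound near 1 sets no firm minimum. Of 45281 probes, 31508 carry an Entrez number, of which 29586 were found in the RefSeq table of GRCm38.p6; other probes were named by symbol or unique synonym. The steps were tested on simulated arrays.

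The 7 genes, the lists and the markers were chosen with earlier results of these data known. Named were, in each list, the 3 highest and 3 lowest genes and those past 1.5-fold; further genes are examples chosen after their values were seen, and some genes of the lists are not reported here. With 2 arrays a profile is a single difference, so no gene was named for likeness. With so few arrays, precision is limited throughout. Of 11 alternatives, 9 were planned and 2 were added after seeing the data.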

Additional observations from a re-analysis of the deposited data

How the results depend on the processing

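No paired analysis was possible because each group had 1 array, and no replicate could be left out. Under all 11 alternatives none of the 4 or 5 detected genes of the 7 differed by 1.5-fold or changed sign; Cdkn2a was 0.00 with background subtraction and in the authors' processed table, where the floor of 16 makes both values equal. Hras ranged from -0.14 to -0.01, Nras from -0.40 (its bright probe alone) to -0.11, Braf from -0.20 to -0.06, Myc from 0.07 to 0.21 and Cdkn2a from -0.33 to 0.00. With only probes that carry an Entrez number Braf had no value. With only probes with a raw intensity of at least 150, both limits chosen after seeing the data, Cdkn2a had none. The median of the activators and adaptors turned to -0.26 with that intensity limit, -0.04 with the 5% detection limit and -0.03 with all probes. Medians of the GTPases, RAS-processing enzymes, kinases, Myc partners, INK4-ARF effectors and locus regulators were within 0.11 of 0 and changed sign under 1 to 8 alternatives. MYC targets below 0 numbered 20 to 27. Counts at 1.5-fold moved by 1 gene. They became 1 for the activators (background subtraction, the 5% detection limit, the authors' table), for the RAS-processing enzymes (median scaling, brightest probe, the intensity limit), for MYC targets (background subtraction, no normalization, the authors' table) and for the INK4-ARF effectors (background subtraction, median scaling, the authors' table). They became 0 for the Myc partners and the locus regulators with an offset of 50 or no background correction, and for the locus regulators also with the intensity limit, while the Myc partners had 2 with the brightest probe or Entrez-numbered probes. The cause was not tested. Signal near background limits Braf, Cdkn2a, Mycn, Cdkn2b, Mycl, Grb2 and Ksr1, among others.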
